A study of Mus musculus with 19 samples.

Results

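The genes of the cytosolic ribosomal proteins were followed in fibroblasts of the mouse peritoneum without a tumour and at 3 stages after injection of carcinoma cells. Members were chosen by symbol alone, as genes named Rpl or Rps with a number, together with Rpsa, Rplp0, Rplp1 and Rplp2. The rule found 86 of the 12799 genes in the table. Of these, 43 were placed with the large subunit, 33 with the small subunit and 3 with the stalk. The 33 include Rps3a1, Rps3a2 and Rps3a3, which share the name Rps3a. A further 7 are paralogs named with an l after the number. Tests could be made on 82 members, since Rpl24, Rpl32l, Rpl39l and Rpl6l had too few counts.

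Peritoneum was taken from C57BL/6 mice carrying the Col1a1-YFP transgene, in which the gene of a fibrillar collagen chain drives a yellow fluorescent protein, and the fibroblasts were sorted after dissociation with Collagenase P, trypsin and DNase. Mice of the tumour groups were given tdTomato-labelled ID8 cells in PBS into the peritoneal cavity, a line derived from mouse ovarian surface epithelium, and control mice PBS alone. The normal group held 5 libraries, day 7 held 5, day 28 held 5 and the end stage, whose day the labels do not give, held 4. Each library is labelled as 1 biological replicate, and the age and sex of the mice are not in the labels. All 4 groups carried the transgene, so what is described applies to cells in which Col1a1 was active.

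Ribosomal proteins, together with the ribosomal RNAs, build the particle that translates mRNA. Their mRNAs are long-lived and abundant, and most begin with a C followed by a run of pyrimidines, the terminal oligopyrimidine or TOP tract. Through this tract the mTORC1 kinase and the RNA-binding protein LARP1 set how strongly the mRNAs are translated, largely without changing their amount. Most of the proteins are needed in equal numbers, and surplus ones are degraded. The genes are known as a set whose mRNA levels vary little between cells of a tissue. Counts of mRNA, as here, do not report translation.

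The start sites of several members are shown because the TOP tract is the sequence feature for which these genes are known. Each stretch holds 15 bases before and 15 bases from the RefSeq start of the gene (GRCm38.p6), 5′ to 3′ on the strand of the gene. Capitals mark the C nearest to the annotated start, within 5 bases of it, that is followed by at least 4 pyrimidines, together with all pyrimidines that follow it. Pyrimidines directly before that C, as in Rpl7a and Rplp2, are left in lower case.
Rpl31, chr1:39367836-39367865, plus strand: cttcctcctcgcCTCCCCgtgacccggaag
Rps15a, chr7:118116133-118116162, minus strand: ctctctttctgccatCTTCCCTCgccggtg
Rpl7a, chr2:26910792-26910821, plus strand: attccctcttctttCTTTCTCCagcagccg
Rplp2, chr7:141447636-141447665, plus strand: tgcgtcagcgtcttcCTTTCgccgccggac
Rpl34, chr3:130730384-130730413, minus strand: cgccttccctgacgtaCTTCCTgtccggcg
Rps27l, chr9:66946071-66946100, plus strand: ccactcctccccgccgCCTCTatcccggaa
Rps19, chr7:24884577-24884606, plus strand: tccgaaatctcgcgagactcgacgcccgac
Rps3, chr7:99483695-99483724, minus strand: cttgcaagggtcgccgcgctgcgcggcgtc
The windows of Rps19 and Rps3 held no such run near the annotated start, unlike the other 6. The window of Rpl27, read but not printed, held none either.

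Of the 86 members, 62 had a promoter entry in the RefSeq table. Such a run lay within 5 bases of the start in 29 of the 62, or 46.8%, against 20.2% of the promoters of 4630 other tested genes and 18.5% of all 27025 promoters. Exactly at the annotated start it was found in 20.97% of members and in 2.44% of the other tested genes. In the 300 bases from 250 before to 50 after the start, the letters CGGAAG, the core of sites bound by ETS family factors, occurred on either strand in 67.7% of members, 32.6% of other tested genes and 17.2% of all promoters. The GC box GGGCGG was found in 59.7% of members and 68.8% of the other tested genes, and TATAAA in 11.3% and 7.11%. These matches describe letters, not bound sites, and annotated starts can lie a few bases from those used in fibroblasts.

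The 250 bases before the start of Rpl31 are given because Rpl31 was the only member called in any comparison with edgeR. They lie at chr1:39367601-39367850 on the plus strand, and capitals mark CCGCCC, the GC box read on the other strand, which occurred 4 times.
Rpl31: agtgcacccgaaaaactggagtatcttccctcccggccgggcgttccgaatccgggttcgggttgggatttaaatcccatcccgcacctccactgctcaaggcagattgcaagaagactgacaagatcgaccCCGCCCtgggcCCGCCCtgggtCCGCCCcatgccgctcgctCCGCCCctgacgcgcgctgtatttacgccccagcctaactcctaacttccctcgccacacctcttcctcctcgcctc
CGGAAG did not occur in this stretch, while the 30-base window of Rpl31 ends with it.

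The libraries were shallow and unequal, with total counts between 66061 (day 28 replicate 1) and 2449339 (end stage replicate 4). Levels are given as CPM, the counts of a gene relative to a fixed library total, scaled by edgeR's TMM factors. The library preparation counts tags near the 3′ end of polyA RNA, so levels were compared between libraries and not between genes. Summed markers of fibroblasts, such as Col1a1, Col3a1 and Pdgfra, ran from 26518 to 55894 CPM, those of mesothelium from 239.9 to 1467, those of macrophages from 11.9 to 455, and those of erythrocytes from 59.6 to 1575, with an end stage median of 649 and a day 28 median of 159. T and NK cell markers ran from 0 to 21.7 CPM, but only 1 of 9 was in the table, and Cd3e, Trac and Nkg7 were not. Macrophage markers, of which 10 of 11 were in the table, summed to 121 to 455 CPM at the end stage, 11.9 to 302 at day 28, 48.8 to 71.4 at day 7 and 64.5 to 123 in normal, and their part in the results was not tested. Pericyte and smooth muscle markers summed to 465 to 636 CPM at the end stage and 149 to 417 in the other groups, without overlap. Epithelial and carcinoma markers ran from 65.9 to 367 CPM, with 5 of 9 in the table and Epcam and Cdh1 not among them. Of 22 tested immediate-early and dissociation stress genes, 19 were negative between the end stage and normal. At an unadjusted p under 0.05 in edgeR, 10 were lower and 0 higher, against 3.34% lower and 3.7% higher of all tested genes. Fosb, an immediate-early transcription factor, was called lower there by edgeR, at -1.09 ± 0.24 (adjusted p = 0.0269), where 0.401% of all tested genes were called. The part of these lists in the results was not tested either. In such bulk libraries, fewer cells of a kind and less RNA per cell cannot be told apart.

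Together the 86 members took 6.65% ± 1.04 of the counts (SD, n = 19). Normal libraries gave 5.80%, 6.93%, 6.46%, 6.74% and 6.47%, a mean of 6.48% ± 0.43 (SD, n = 5). Day 7 libraries gave 6.82%, 5.87%, 8.27%, 8.01% and 5.72%, with a mean of 6.94% ± 1.18 (SD, n = 5). The day 7 group thus reached from just below the normal range to above it, with its 2 deepest libraries highest. Day 28 libraries gave 5.54%, 4.92%, 6.54%, 6.43% and 6.06%, a mean of 5.90% ± 0.67 (SD, n = 5), and the end stage 7.51%, 5.94%, 9.20% and 7.13%, a mean of 7.45% ± 1.35 (SD, n = 4). All 4 groups overlapped, and the lowest share belonged to a day 28 library and the highest to an end stage library. If each count is independent, counting error was small against this spread. The 95% Wilson intervals were then 5.37% to 5.72% in the shallowest library and 9.17% to 9.24% in the deepest. How molecular identifiers were handled is not given, so these intervals may be too narrow.

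**Figure D1:**
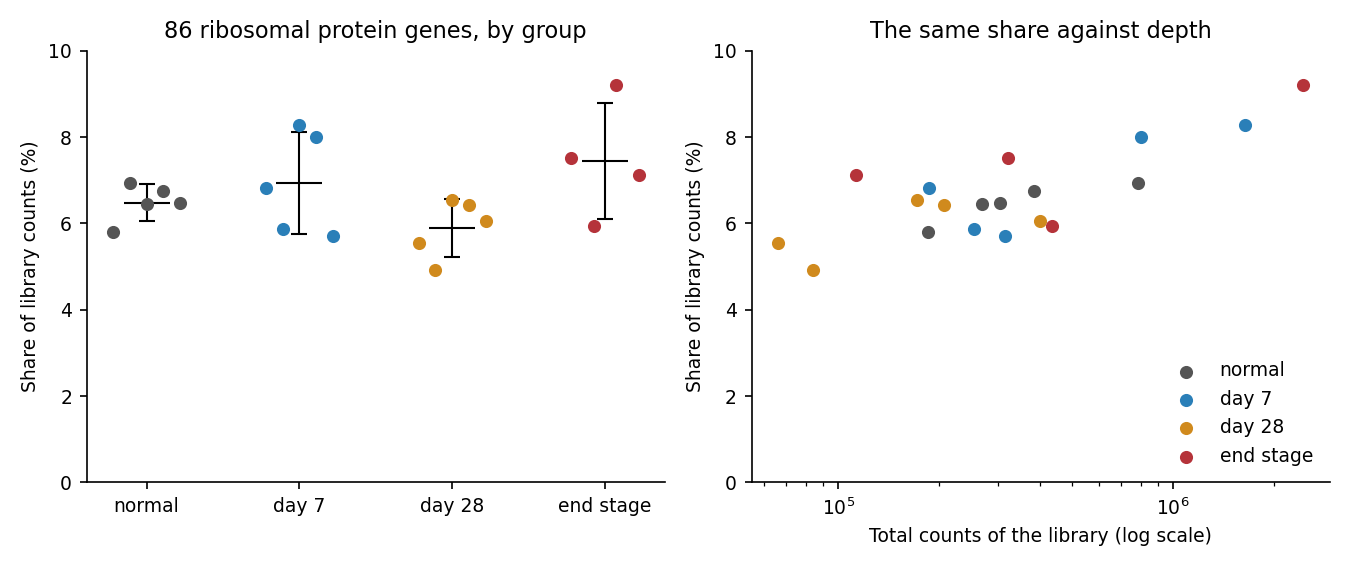
Share of library counts in the 86 genes, in percent, by group (left, points are libraries, bars the mean and SD) and against the total counts of the library on a log axis (right). The 3 deepest libraries, 2 of day 7 and 1 of the end stage, hold the 3 highest shares, 8.01% to 9.20%, and the 2 shallowest, both of day 28, the 2 lowest, 4.92% and 5.54%.

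The deepest libraries held the highest shares, and the part of depth in this was not tested. Without the 3 deepest libraries the mean share at day 7 was 6.14% and at the end stage 6.86%. The day 7 mean then lay below the normal mean of 6.48%, while with all libraries, at 6.94%, it lay above. Proteins of the small subunit took 2.64% ± 0.14 of the counts in normal libraries and 2.98% ± 0.50 in those of day 7. Day 28 gave 2.41% ± 0.32 and the end stage 3.09% ± 0.60 (SD). The ratio of small to large subunit counts was 0.691 ± 0.025 in normal (SD, n = 5) and 0.758 ± 0.045 at day 7. It was 0.691 ± 0.027 at day 28 and 0.711 ± 0.016 at the end stage (SD, n = 4). Day 7 libraries reached ratios of 0.696 to 0.809 and overlapped the normal range of 0.668 to 0.728.

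The spread of the members between libraries of a group was summarised by edgeR's biological coefficient of variation, the relative spread left after counting error. Its median was 0.283 over the 82 tested members and 0.326 over all 5980 tested genes. Among genes with a mean of 200 CPM or more the medians were 0.268 for 63 members and 0.278 for 736 other genes. The upper quartile was 0.453 over the tested members and 0.386 over all tested genes, so the members held both narrow and wide spreads. In 27 of all 86 members the highest library was over 10 times the lowest, or a library had 0 counts. These include untested members of few counts, such as Rpl39l with 22 in all, and no such number is given for other genes. The widest coefficients were those of Rps4x (0.940), the X-linked small subunit gene, Rpl27 (0.875), Rpl7 (0.753), Rpl10 (0.747), whose protein joins late in the maturation of the large subunit, and Rps6 (0.673), the substrate of S6 kinase.

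**Figure D2:**
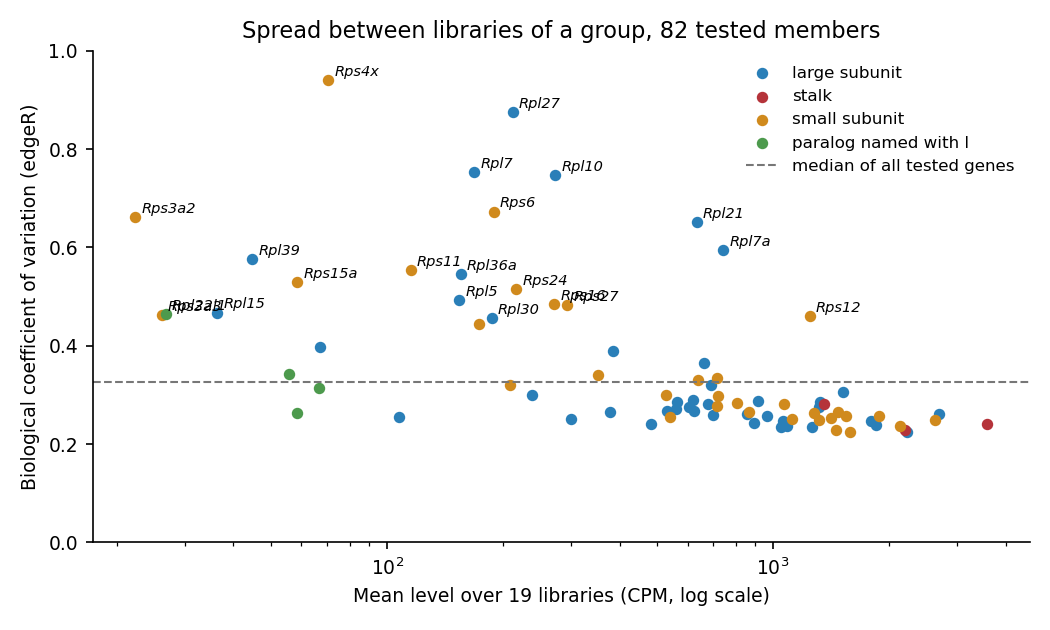
Biological coefficient of variation from edgeR against the mean level over 19 libraries (CPM, log axis) for the 82 tested members, coloured by role, with the median of all tested genes, 0.326, as a dashed line. Most members lie near or below the dashed line, and a scattered set reaches up to 0.940 (Rps4x).

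Some members were almost missing from single libraries. In 13 pairs of member and library, at most 3 counts were found where the mean level of the other libraries would have given 20 or more. That was 0.939% of the 1384 pairs with such an expectation, against 0.0889% of 51768 pairs of other tested genes. Day 28 replicate 2 held 5 of the 13. It had 0 counts of Rpl10, where 25.2 would have been reached, 3 of Rpl21 in place of 58.3, and 1 each of Rpl10a, Rps16 and Rps27. Rps4x had 0 counts in normal replicate 2, where 57.0 would have been reached, and 2 in normal replicate 5, and the same pair of libraries had 3 counts each of Rps15a. Rpl27 had 1 count in normal replicate 1 in place of 40.8, Rpl7a 3 in day 28 replicate 1 in place of 52.0, Rps6 3 in day 28 replicate 3, and Rpl10 2 in end stage replicate 5. The 13 pairs were spread over 7 libraries and all groups but day 7.

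**Figure D3:**
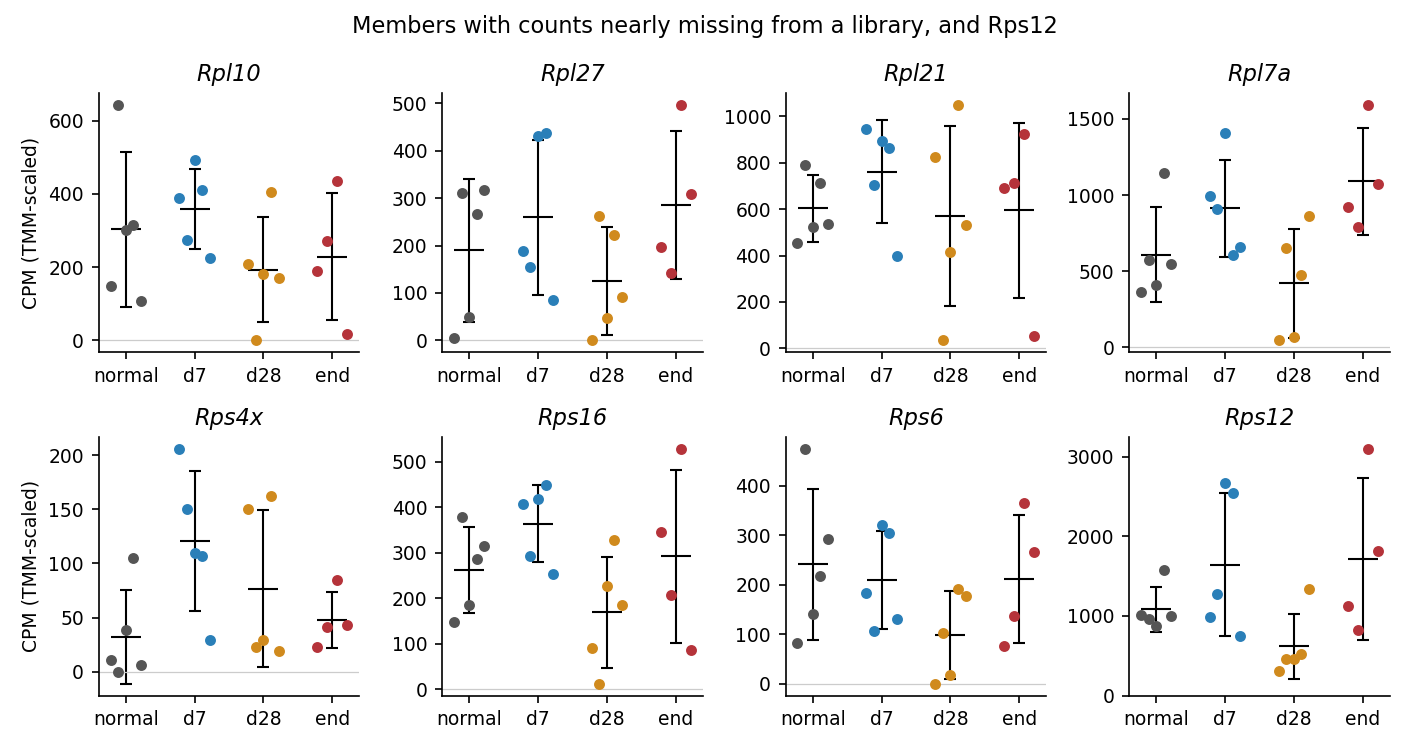
Levels (CPM, TMM-scaled) in every library for 7 members that were almost missing from at least 1 library, and for Rps12, with the mean and SD of each group as bars. Rpl10, Rpl27 and Rps6 each have a day 28 library at 0 CPM, and Rps4x has a normal library at 0 CPM. Rpl27 also has a normal library at 5.46 CPM. Other libraries of the same groups lie above these.

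Retrocopies may bear on counts of these genes, and their part in the almost missing counts was not tested. The table holds 133 rows named as pseudogenes or retrocopies of ribosomal protein genes. These rows took 0.258% to 0.437% of the counts, and 49 members had at least 1 such row. Among the members almost missing from a library, Rpl10, Rpl10a, Rpl21, Rpl7a, Rps16, Rps27 and Rps6 had such rows. Rps4x, Rps15a and Rpl27 had none. The rows of Rps16 held 3494 counts over all libraries, close to the 3551 of Rps16 itself, and those of Rps10 held 3302 against 6173. Rpl31 had 7158 counts and 7 such rows with 2262. The sources used here do not say how reads that match both a gene and its retrocopies were counted, so levels of these members are uncertain in that respect.

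At day 7, log2 fold changes against normal were positive in 60 of the 82 members tested (73.2%) and in 48.6% of all 5980 tested genes. The median was 0.19 for the members and -0.01 for all tested genes. At an adjusted p under 0.05, edgeR, DESeq2 and limma-voom called 0 members, and 0.0502%, 0.0669% and 0.151% of all tested genes. At an unadjusted p under 0.05 in edgeR, 7 members were higher and 0 lower, against 1.74% higher and 1.72% lower of all tested genes. In 2 members, Rpl32 and Rps14, every day 7 library lay above every normal library, where 0.401% of all tested genes were placed that way. Small subunit genes had a median of 0.34 and large subunit genes of 0.16, and the 3 stalk genes were slightly negative at -0.10. The median rested on the deep libraries: without the 3 deepest it was -0.05, with 38 members positive and 44 negative.

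Rpl32, a large subunit protein often used as a reference gene, had 557, 571, 559, 426 and 359 CPM in the normal libraries and 1364, 1064, 711, 685 and 694 at day 7. Every day 7 library was above the highest normal one. The log2 fold change was 0.86 ± 0.24 (SE), or 1.82-fold, with an edgeR adjusted p of 0.819 over all tested genes. At day 28 its libraries had 510, 584, 641, 921 and 375 CPM and at the end stage 623, 637, 870 and 728. The end stage libraries all exceeded the normal ones as well, by 0.53 ± 0.25 on the log2 scale (adjusted p = 0.675), and day 28 overlapped normal at 0.30 ± 0.25 (adjusted p = 0.832).

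Rps14, a small subunit protein whose loss of 1 copy impairs red cell formation in humans, had 1147, 972, 1352, 1060 and 1074 CPM in normal and 2332, 1836, 1666, 1722 and 1830 at day 7. These groups did not overlap, and the log2 fold change was 0.74 ± 0.21 (edgeR adjusted p = 0.872). Day 28 libraries had 1290, 1202, 2682, 1887 and 1403 CPM and overlapped both, with 0.60 ± 0.21 against normal (adjusted p = 0.592). The end stage libraries, at 1549, 1130, 1665 and 1507 CPM, all lay below those of day 7.

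Rps15a, a small subunit protein, had the smallest p at day 7, with few counts behind it. Normal libraries had 60.1, 3.91, 11.5, 42.4 and 8.97 CPM, day 7 libraries 161, 142, 71.2, 56.1 and 56.0, and end stage libraries 19.4, 16.9, 43.9 and 51.4. The log2 fold change at day 7 was 2.06 ± 0.56, or 4.16-fold (edgeR adjusted p = 0.819), with normal replicate 1 inside the day 7 range. From day 7 to the end stage it was -1.52 ± 0.56 (adjusted p = 0.413), and there the groups did not overlap. Day 28 libraries ran from 29.99 to 137 CPM, across the ranges of the other groups. The start of Rps15a printed above has its marked pyrimidines exactly at the annotated start.

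The mitochondrially encoded genes stood beside the members at day 7 as a set with positive values. The list was taken by symbol. It holds genes of respiratory chain subunits and also mitochondrial ribosomal RNA such as mt-Rnr2, which is not translated. All 8 tested had a positive log2 fold change against normal, with a median of 1.04 and 3 at an unadjusted p under 0.05, and edgeR called none at an adjusted p under 0.05. They took 0.440% ± 0.176 of the counts at day 7 and 0.207% ± 0.156 in normal (SD, n = 5 each). Of the 53 tested genes of mitochondrial ribosomal proteins, 36 were positive with a median of 0.14, and 1 of them, Mrpl40, had an unadjusted p under 0.05.

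At day 28 the signs ran the other way, with 22 of 82 members positive against normal, where 49.2% of all tested genes were, and a median of -0.19. Each of edgeR, DESeq2 and limma-voom called 0 members and 0.0% of all tested genes. At an unadjusted p under 0.05 in edgeR, 7 members were lower and 2 higher, against 3.83% lower and 3.09% higher of all tested genes. The lower ones were Rpl17, Rpl29, Rpl31, Rps13, Rps20, Rps27l and Rps28, and the higher ones Rps14 and Rps15a. In Rpl31 and Rps3 every day 28 library lay below every normal one, as in 0.736% of all tested genes. Against day 7, 11 of 82 members were positive, where 49.1% of all tested genes were, and the median was -0.41. At an unadjusted p under 0.05, 23 were lower and 1 higher, against 4.8% lower and 4.15% higher of all tested genes. Only Rpl31 had groups that did not overlap, all lower, as in 0.953% of all tested genes. Here edgeR and DESeq2 called 0 members, where each called 0.0% of all tested genes, and limma-voom with quality weights called 5 lower, Rpl17, Rpl26, Rpl31, Rps12 and Rps20, where it called 0.518% of all tested genes. Without the 3 deepest libraries, 2 of which are day 7 libraries, the median against day 7 was -0.21 and 6 of 82 members had an unadjusted p under 0.05, where 5.9% of all genes tested in that fit had.

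At the end stage 67 of 82 members were positive against normal, where 48% of all tested genes were, with a median of 0.21. Called were 0 members by edgeR, DESeq2 and limma-voom, and 0.401%, 0.819% and 0.686% of all tested genes. At an unadjusted p under 0.05 in edgeR, 3 members were higher, Rps19, Rpl32 and Rpl34, and 0 lower, against 3.7% higher and 3.34% lower of all tested genes. Rpl32 alone had end stage libraries all above the normal ones, as in 1.64% of all tested genes. Rps19, whose human gene is the one most often mutated in Diamond-Blackfan anaemia, was 0.51 ± 0.23 higher on the log2 scale (edgeR adjusted p = 0.615), and Rpl34, a large subunit protein, 0.50 ± 0.24 (adjusted p = 0.681). In Rps19, end stage replicate 3 lay inside the normal range at 970 CPM and the other 3 libraries, at 1845, 1841 and 1619, above all normal ones, whose highest had 1502. Against day 7, 50 of 82 members were positive, where 49.3% of all tested genes were, with a median of 0.08. Again edgeR, DESeq2 and limma-voom called 0 members, and 0.284%, 1.03% and 2.12% of all tested genes. At an unadjusted p under 0.05 in edgeR, 1 member was higher and 4 lower, against 3.73% higher and 3.78% lower of all tested genes. Groups did not overlap in Rpsa, which was higher as 1.71% of all tested genes were, nor in Rps14 and Rps15a, which were lower as 1.57% were.

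**Figure D4:**
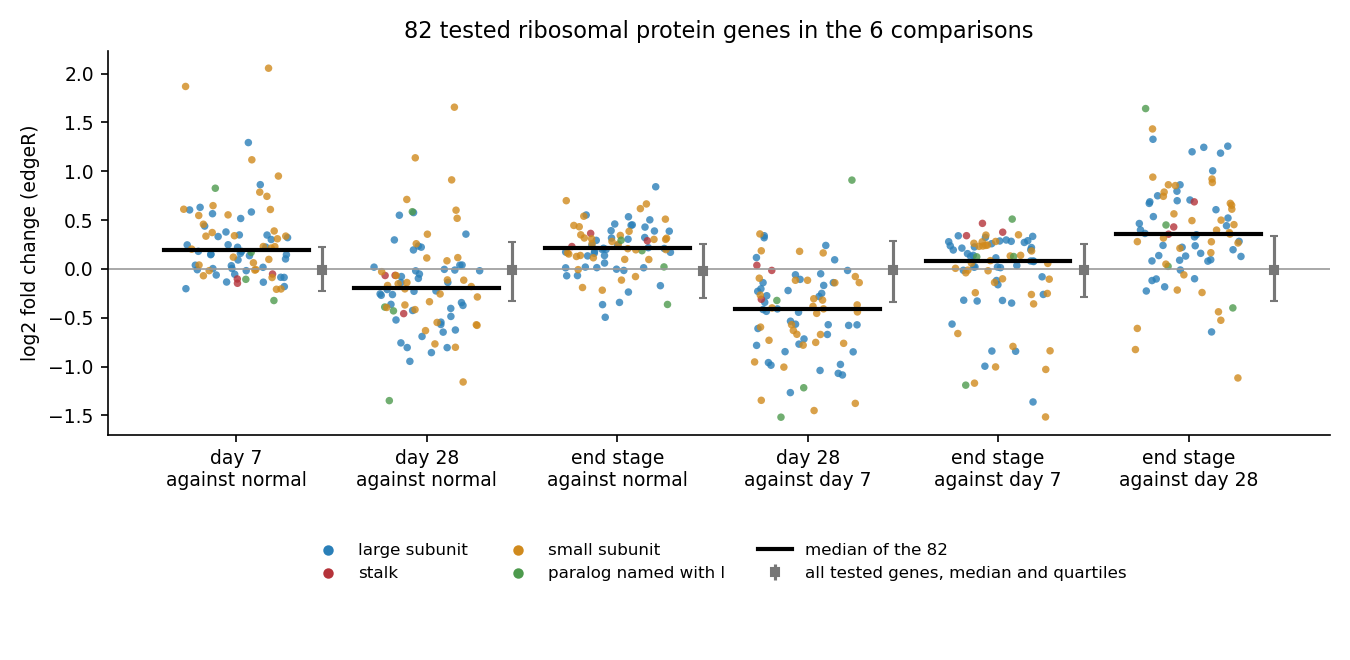
log2 fold changes from edgeR of the 82 tested members in each comparison, coloured by role, with their median as a black line and the median and quartiles of all 5980 tested genes as a grey square and bar. The members' medians are 0.19, -0.19, 0.21, -0.41, 0.08 and 0.36 from left to right, while those of all tested genes stay within 0.02 of 0.

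The comparison of the end stage with day 28 held the only member called by edgeR. Of 82 members, 66 were positive, where 48.8% of all tested genes were, with a median of 0.36. Rpl31 was called higher and none lower, where edgeR called 0.318% of all tested genes in either direction and 0.301% higher. At an unadjusted p under 0.05, 24 members were higher and 0 lower, against 5.97% higher and 3.76% lower of all tested genes. In 10 members every end stage library lay above every day 28 library, as in 2.22% of all tested genes. These were Rpl12, Rpl17, Rpl26, Rpl31, Rpl36, Rps13, Rps20, Rps27l, Rps3 and Rps9. Large subunit genes had a median of 0.34, small subunit genes of 0.37 and the 3 stalk genes of 0.43.

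Rpl31, a large subunit protein at the rim of the tunnel through which the new chain leaves, had 270, 160, 414, 334 and 399 CPM at day 28 and 752, 545, 1127 and 625 at the end stage. Normal libraries had 503, 734, 544, 608 and 535 CPM, and day 7 libraries 668, 435, 775, 815 and 441. Day 28 libraries thus lay below every library of the other groups. The end stage exceeded day 28 by 1.25 ± 0.27 on the log2 scale, or 2.37-fold, with an edgeR adjusted p of 0.0250. Against normal, day 28 differed by -0.86 ± 0.26 (adjusted p = 0.592) and against day 7 by -0.96 ± 0.26 (adjusted p = 0.311). The end stage differed from normal by 0.39 ± 0.26 (adjusted p = 0.854) and day 7 by 0.10 ± 0.25 (adjusted p = 0.999), with the groups overlapping in both.

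The adjusted p of Rpl31 passed above the threshold when certain libraries were left out. Its edgeR adjusted p was 0.191 without the 3 libraries under 150000 counts, with a log2 fold change of 1.09, and 0.301 without the 3 deepest, with 0.98. Leaving out day 28 replicate 1, 2 or 4, or end stage replicate 4, took it to 0.0537, 0.0717, 0.0661 and 0.296, with log2 fold changes of 1.21, 1.10, 1.26 and 0.99. With DESeq2 it was 0.00496, with limma-voom 0.0505, and it was given as 0.00688 by the authors' deposited table. Summing Rpl31 with the rows of its pseudogenes left 1.14 with an adjusted p of 0.0370.

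Next in order of p stood Rpl17, Rps27l and Rps20, none of them called by edgeR. Rpl17, a large subunit protein that also lies near the exit tunnel, had 435, 320, 268, 440 and 509 CPM at day 28 and 858, 579, 1517 and 822 at the end stage, with no overlap. The difference was 1.26 ± 0.30 on the log2 scale (edgeR adjusted p = 0.0501), and its normal libraries ran from 421 to 951 CPM. Rps27l, the paralog of Rps27 and in human cells a target of p53, had 0, 45.8, 29.2, 25.3 and 33.6 CPM at day 28 and 61.3, 67.6, 122 and 111.3 at the end stage. It differed by 1.64 ± 0.42 (edgeR adjusted p = 0.0778), and the floor of 3 counts in the library at 0 was 45.0 CPM, so that library could hold as much as the others of day 28. Normal libraries of Rps27l had 43.7, 93.8, 84.3, 59.8 and 80.7 CPM, and day 28 against normal gave -1.35 ± 0.41 (adjusted p = 0.592).

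Rps20, a protein of the head of the small subunit, had 525, 458, 577, 617 and 684 CPM at day 28 and 1291, 845, 1283 and 831 at the end stage. The groups did not overlap, and the difference was 0.89 ± 0.24 (edgeR adjusted p = 0.0863). Normal libraries had 683, 1207, 777, 905 and 888 CPM and day 7 libraries 1019, 665, 1216, 1220 and 731. Day 28 differed by -0.63 ± 0.23 from normal (adjusted p = 0.592) and by -0.75 ± 0.23 from day 7 (adjusted p = 0.374), and day 7 from normal by 0.12 ± 0.22 (adjusted p = 0.999).

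Rps3, a small subunit protein at the entry of the mRNA channel, had 960, 984, 1254, 1163 and 1283 CPM at day 28 and 1929, 1509, 2134 and 1644 at the end stage. Normal libraries, at 1426, 1375, 1616, 1418 and 1489 CPM, all lay above those of day 28, and those of day 7 ran from 1201 to 1772. The end stage exceeded day 28 by 0.67 ± 0.20 on the log2 scale (edgeR adjusted p = 0.154), and day 28 differed from normal by -0.37 ± 0.19 (adjusted p = 0.712). DESeq2 called Rpl31, Rps3, Rpl17, Rps27l and Rps20 in this comparison and 0.953% of all tested genes, and limma-voom called 0 members and 0.184%. By the authors' deposited table, 5 members of this comparison passed the threshold of an adjusted p of at most 0.1, where 0.47% of all genes did. In the other 5 comparisons that table had 0 members past it. Its share of all genes was 0.047% for day 7, 0.0% for day 28 and 0.454% for the end stage against normal, and 0.0157% for day 28 and 0.603% for the end stage against day 7.

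**Figure D5:**
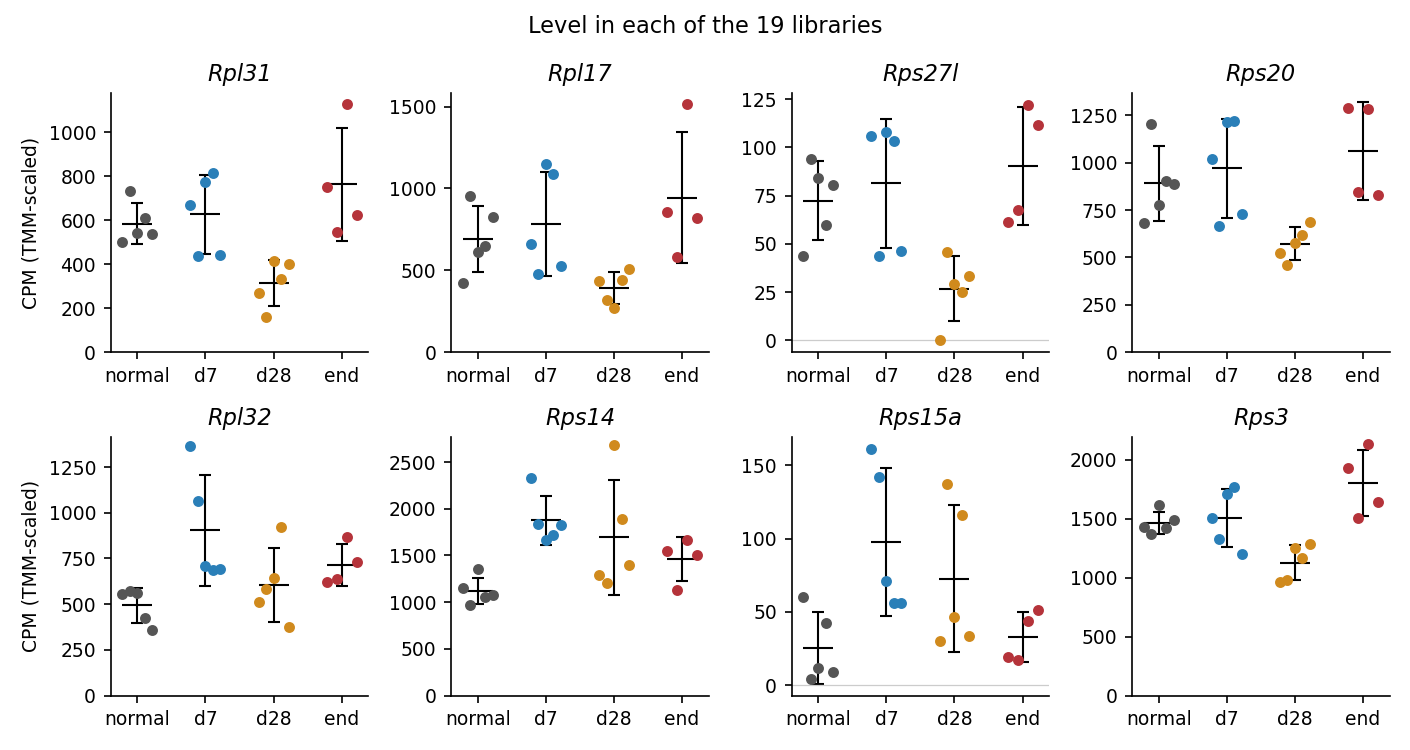
Levels (CPM, TMM-scaled) in each library of the 4 groups for 8 members, with the mean and SD as bars. Rpl31, Rpl17, Rps27l, Rps20 and Rps3 have end stage libraries that all lie above the day 28 libraries, whereas Rpl32 and Rps14 have day 7 libraries that all lie above the normal ones.

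All 3 comparisons with day 28 share its 5 libraries, so their values are not independent. The 2 shallowest libraries of the series, with 66061 and 83998 counts, are both of day 28, and they held the lowest value of 39 of the 82 tested members, 25 in replicate 2 and 14 in replicate 1. End stage replicate 4, the deepest, held the highest value of 33 members, and day 7 replicate 1 that of 13, among them Rpl32, Rps15a, Rps24, Rps25 and Rps4x. Without day 28 replicates 1 and 2, edgeR called 0 members between the end stage and day 28 and 0.109% of all genes tested in that fit, and 15 of 82 members had an unadjusted p under 0.05, where 9.14% of all genes had. After thinning every library to at most 200000 counts, 1 member was called and the median was 0.36.

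The stalk proteins Rplp0, Rplp1 and Rplp2 bring elongation factors to the ribosome. Rplp0 had means of 2143 ± 104 CPM (normal), 2066 ± 255 (day 7), 2046 ± 174 (day 28) and 2617 ± 573 (end stage), each with its SD. Rplp1 had 3480 ± 445, 3237 ± 701, 3322 ± 446 and 4476 ± 746 CPM in the same order, and the end stage exceeded day 7 by 0.47 ± 0.20 on the log2 scale (edgeR adjusted p = 0.561). Rplp2 had 1447 ± 199, 1302 ± 459, 1046 ± 320 and 1695 ± 295 CPM, with 0.69 ± 0.25 between the end stage and day 28 (adjusted p = 0.314). Rpsa, a small subunit protein also known as the laminin receptor, had 1555 ± 169, 1536 ± 119, 1436 ± 239 and 1860 ± 217 CPM. Its end stage libraries all lay above those of day 7, as in 1.71% of all tested genes. The gap was narrow, with the lowest end stage library at 1679 CPM and the highest day 7 library at 1670.

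Among the 7 paralogs, 4 were tested. Rpl22l1, the paralog of Rpl22, had 44.5, 75.2, 39.2, 34.9 and 19.8 CPM at day 7 and 9.68, 7.24, 29.9 and 17.1 at the end stage, a difference of -1.19 ± 0.54 (edgeR adjusted p = 0.588) with overlapping groups. Rpl7l1, whose protein acts in the maturation of the large subunit, had a mean of 72.1 ± 41.6 CPM at day 28 and 40.5 ± 25.2 at day 7, or 0.91 ± 0.43 (adjusted p = 0.550). It was the 1 member higher at day 28 than at day 7 at an unadjusted p under 0.05. Rps4l had 44.7 ± 35.5 CPM at day 28 and 65.5 ± 15.0 in normal. Rpl39l, known for its expression in the testis, had 0 counts in 12 libraries and 22 counts in all, and Rpl6l had 0 counts in 11 libraries and 20 in all. Rpl32l had 112 counts, with 2 libraries at 0.

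The 3 tumour stages were also tested jointly against normal, a test that any difference among the groups can pass, also one between tumour stages. It does not ask whether tumour as a whole differed from normal. There edgeR called 0 members and 0.686% of all tested genes. An unadjusted p under 0.05 in edgeR was found in 18 members, against 8.98% of all tested genes. The smallest adjusted p was 0.0618, of Rpl31. DESeq2 called Rpl31 in this test and 1.2% of all tested genes, and limma-voom called Rpl31, Rpl17, Rps12 and Rps20 and 1.64%.

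Other genes of translation were read from lists. Of the 33 tested initiation factors and inhibitors, the 8 elongation and termination factors and the 45 factors of ribosome biogenesis, edgeR called 0 in each of the 6 comparisons. Between the end stage and day 28, the medians of these lists were 0.10, 0.18 and 0.03, against 0.36 for the members. At an unadjusted p under 0.05 in edgeR, 2, 2 and 1 of their genes were higher and 0 lower, against 5.97% higher and 3.76% lower of all tested genes. There the 53 genes of mitochondrial ribosomal proteins had a median of 0.18, with 7 higher and 1 lower. The 26 tested pseudogene rows had a median of 0.40, with 4 higher and 2 lower. Between the end stage and normal, 43 of the 53 were positive with a median of 0.29, and 67 of the 82 members with 0.21. Tpt1, the translationally controlled tumour protein, and Eef1b2, an exchange factor of translation elongation, are textbook TOP mRNAs. Tpt1 had 1619 ± 428 CPM at day 28 and 3077 ± 583 at the end stage, 0.92 ± 0.30 on the log2 scale (edgeR adjusted p = 0.207), and Eef1b2 267 ± 71.7 and 554 ± 274, 1.05 ± 0.32 (adjusted p = 0.171). Both had end stage libraries that all lay above those of day 28, as in 2.22% of all tested genes. Eef1a1, another TOP mRNA, which codes for the factor that brings tRNAs to the ribosome, had the opposite sign at -1.50 ± 0.93 (adjusted p = 0.655), with 111.3 ± 120.2 CPM at day 28 and 40.5 ± 14.5 at the end stage. Eef2, the translocation factor and also a TOP mRNA, was at -0.16 ± 0.21 (adjusted p = 0.875), and 5 of the 8 genes of the list were positive. Rack1, a scaffold bound to the small subunit, and Fau, the gene of a small subunit protein, fall outside the symbol rule. Between the end stage and normal, Rack1 was at 0.40 ± 0.20 (edgeR adjusted p = 0.731) and Fau at 0.31 ± 0.24 (adjusted p = 0.901) on the log2 scale, with overlapping groups.

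Regulators of ribosome production were also without a call by edgeR in the 6 comparisons. Of the 24 tested, 9 were positive and 15 negative between the end stage and day 28, with a median of -0.17 and none at an unadjusted p under 0.05. Myc, the transcription factor that drives ribosome biogenesis, had 269 ± 53.6 CPM in normal and 185 ± 94.0 at the end stage, -0.57 ± 0.27 (edgeR adjusted p = 0.672). Lyar, a nucleolar factor of ribosome biogenesis, had 14.1 ± 11.0 CPM at day 28, 48.4 ± 12.7 in normal and 52.5 ± 11.8 at day 7. Its day 28 libraries lay below all libraries of both groups, at -1.58 ± 0.49 (adjusted p = 0.592) and -1.63 ± 0.49 (adjusted p = 0.374). Other genes of the biogenesis list had the opposite sign at day 28, with Utp6 at 1.46 ± 0.53 against normal (adjusted p = 0.592) and Rrp9 at 1.31 ± 0.53 against day 7 (adjusted p = 0.509). Of the 45 tested, 25 were positive against normal and 27 against day 7, with medians of 0.09 and 0.14. Eif1a, a factor of start codon scanning, had 3.09 ± 4.43 CPM at day 28 and 32.6 ± 19.7 at the end stage, a level near that of a few counts. Of the 12 tested genes of the integrated stress response, Atf3 had 1545 ± 393 CPM at day 7 and 944 ± 240 at the end stage, -0.72 ± 0.23 (adjusted p = 0.219).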

How the data were processed

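RNA of fibroblasts sorted from the peritoneum was counted in 19 MARS-seq libraries. Per the file headers, the authors deposited a raw count for every gene in each library. They also deposited a normalized signal, which equalled the counts divided by 1 size factor per library (0.216 to 8.05) and served only to check the counts. Their table of comparisons, also deposited by the authors, gives log2 fold changes and p-values for 6 comparisons, and a further deposited sheet lists the authors' thresholds for calling genes. The submitters' processing notes name DESeq2 and GRCm39; the sources used here do not give versions, the aligner, the counting tool or how molecular identifiers were handled.

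Counts were filtered with filterByExpr (minimum count 10), which left 5980 of 12799 genes, and tested with edgeR 4.0.16 (TMM factors 0.954 to 1.10, robust quasi-likelihood F test, 1 model of 4 groups, Benjamini-Hochberg over all tested genes, threshold 0.05) in R 4.3.3. Dividing the absolute log2 fold change by the square root of F gave its SE. A count of 0 allows up to 3 counts, or 1.23 to 45.0 CPM by library; floors and intervals cover counting error only. The steps were tested on simulated data. Rows with no symbol (21) kept their gene identifiers and stayed in the fit. DESeq2 1.42.0, limma-voom (limma 3.58.1), other scalings and filters, 2 groups alone, a replicate block, thinning and each library left out were alternatives; 6 more were added after seeing the data. No pair of libraries within a group agreed within sampling noise. Same-numbered libraries of different groups deviated together with correlations from -0.45 to 0.59. Correlations between libraries of unlike number were not computed, so these values cannot say whether replicate numbers pair the samples. The main fit used no pairing.

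The members and all lists were chosen with earlier results of these data known. Named were Rpl32, Rps20 and Rps3, each called member, the 3 members of smallest p per direction and comparison, stalk genes, Rpsa, paralogs, the 5 members of highest and of lowest mean level (not all described) and, of related lists, each called gene and the 2 genes of smallest p per comparison. Members almost missing from a library, those with the widest spread, those without overlap between groups, those called by another tool, Eef1a1, Eef2, Fau, Rack1 and the pairs printed for context were chosen after their values were seen. Promoters came from RefSeq (GRCm38.p6), used for its own coordinates alone. Tables were handled with Python 3.11.15 and pandas 2.3.3.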

Additional observations from a re-analysis of the deposited data

Results flagged for a closer look

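In 44 groups of libraries checked for a single value far from the rest, 3 stood out, where chance gives about 1 in 20. Rps14 had 2332 CPM in day 7 replicate 1, above the 1666 to 1836 CPM of the other day 7 libraries, all of which still exceeded every normal library. The ribosomal RNA row Rn18s-rs5 took 4.65% of the counts in normal replicate 2 and 3.91% in day 28 replicate 4, where the medians of these groups were 0.786% and 0.560%. With that row removed, edgeR called Rpl31 and Rpl17 between the end stage and day 28.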

How the results depend on the processing

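The counts of called members in the comparisons with normal, and between the end stage and day 7, were 0 under every alternative run. Between day 28 and day 7, limma-voom with quality weights called 5 members. Between the end stage and day 28 the count of 1 became 5 with DESeq2, 4 without a filter, 2 with TMM factors computed without the members, 2 with counts summed with pseudogene rows and 2 without Rn18s-rs5. It became 0 with limma-voom, with the 2 groups alone, without the libraries under 150000 counts, without the 3 deepest libraries and without day 28 replicates 1 and 2, and ran from 0 to 4 with each library left out. In the joint test the count of 0 became 1 with DESeq2, 4 with limma-voom and 2 without a filter, and ran from 0 to 1 with each library left out. The cause was not tested. The median at day 7 against normal was -0.054 without the 3 deepest libraries, and 0.09 to 0.29 with each library left out; between the end stage and day 7 it ran from -0.10 to 0.18. Without the 3 members of highest counts the share was 5.57% in normal and 5.07% at day 28.

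Differences near 0 changed sign. Against normal at day 7 and without the 3 deepest libraries, Rpl31 was -0.21, Rps20 -0.17 and Rps3 -0.14; with each library left out, Rpl31 ran from -0.018 to 0.21 and Rps3 from -0.033 to 0.10. Between the end stage and day 7, Rps20 was -0.064 with limma-voom. With the replicate block, edgeR called 1 member between the end stage and day 28, with a median of 0.34, and 0 elsewhere. Depth limits the members with few counts most: 3 counts were 45.0 CPM in the shallowest library.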
